A study of Mus musculus with 13 samples.

Results

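A set of 9 genes for cold-inducible RNA-binding proteins and regulators of pre-mRNA splicing was followed through 13 RNA-seq libraries from the ventral tegmental area (VTA) of mice, where the dopamine neurons of the reward system lie. The genes were Rbm3, Cirbp, Clk1, Clk4, Rnpc3, Tia1, Pnisr, Prpf39 and Ttc14. They are 9 of the 26264 genes in the table, and all 9 were among the 17755 genes with enough signal to be tested. They were chosen by their deposited normalized counts, because most were lower after social defeat in mice given the GFP virus, so their values in that comparison are a description and were not tested. The name of the set held for 8 of the 9 genes there, since Cirbp differed little between the GFP groups.

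The mice were of strain C57BlJ/6, and every animal carried a virus in the VTA, either one for the histone methyltransferase Setd7 or a GFP control virus, given at P14 (postnatal day 14). Some mice of each virus then went through adult social defeat, in which a mouse is repeatedly attacked by a larger aggressor. The GFP control group held 3 libraries (1 female, 2 male), the GFP defeat group 4 (2 female, 2 male), the Setd7 control group 4 (2 female, 2 male) and the Setd7 defeat group 2 (1 female, 1 male). Total RNA from VTA tissue was depleted of ribosomal RNA and sequenced. The promoter and serotype of the viruses are not given in the sources used here. The labels do not say that each library is a separate animal, so p-values measure the spread between these libraries.

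Rbm3 and Cirbp are RNA-binding proteins of the same family that rise when cells are mildly cooled, and Rbm3 is known for protecting synapses in cooled mouse brain. Clk1 and Clk4 are kinases that phosphorylate SR proteins, the serine and arginine rich factors that help to define exons, and their own transcripts are known to be kept in the nucleus with introns still in place. Rnpc3 belongs to the minor spliceosome, Prpf39 and Tia1 act with the U1 particle at 5′ splice sites, and Pnisr is a nuclear speckle protein with an SR-rich domain.

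All promoter windows that could be matched are shown, to set Cirbp, the gene that differed little, beside 4 genes that were lower in the GFP defeat libraries. RefSeq windows of the GRCm38.p6 build, 250 bases before to 50 after an annotated start, were found for 5 of the 9 genes (6 windows of 32851), and that build is not the GRCm39 build of the deposited values. Each is printed 5′ to 3′ on the gene's strand, and capitals mark matches, on either strand, to the motifs named after the sequences.
Cirbp first window, chr10:80167589-80167888, plus strand: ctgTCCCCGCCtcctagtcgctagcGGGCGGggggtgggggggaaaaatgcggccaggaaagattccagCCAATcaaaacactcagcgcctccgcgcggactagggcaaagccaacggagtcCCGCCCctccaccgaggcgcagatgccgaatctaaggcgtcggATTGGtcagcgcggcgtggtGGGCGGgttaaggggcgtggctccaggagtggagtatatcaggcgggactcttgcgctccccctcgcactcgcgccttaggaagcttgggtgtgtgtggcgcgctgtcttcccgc
Cirbp second window, chr10:80167921-80168220, plus strand: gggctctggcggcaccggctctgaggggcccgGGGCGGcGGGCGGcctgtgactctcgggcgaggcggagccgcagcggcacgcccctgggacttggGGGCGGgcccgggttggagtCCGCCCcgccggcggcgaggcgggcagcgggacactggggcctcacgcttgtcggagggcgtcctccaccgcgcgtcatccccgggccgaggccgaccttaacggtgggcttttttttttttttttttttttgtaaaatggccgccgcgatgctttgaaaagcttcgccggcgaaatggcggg
Clk4, chr11:51262864-51263163, plus strand: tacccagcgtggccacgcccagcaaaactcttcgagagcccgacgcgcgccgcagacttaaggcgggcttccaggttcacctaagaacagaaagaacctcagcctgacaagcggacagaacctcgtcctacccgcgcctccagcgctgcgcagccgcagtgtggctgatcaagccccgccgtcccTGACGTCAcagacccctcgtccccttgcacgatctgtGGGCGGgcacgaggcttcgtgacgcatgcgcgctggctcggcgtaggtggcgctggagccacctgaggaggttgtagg
Rnpc3, chr3:113630100-113630399, minus strand: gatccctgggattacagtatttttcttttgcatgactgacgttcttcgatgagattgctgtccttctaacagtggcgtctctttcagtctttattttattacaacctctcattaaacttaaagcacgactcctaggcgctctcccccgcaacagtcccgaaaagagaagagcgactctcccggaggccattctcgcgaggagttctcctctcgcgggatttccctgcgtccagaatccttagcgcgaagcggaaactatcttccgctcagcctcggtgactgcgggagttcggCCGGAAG
Tia1, chr6:86403969-86404268, plus strand: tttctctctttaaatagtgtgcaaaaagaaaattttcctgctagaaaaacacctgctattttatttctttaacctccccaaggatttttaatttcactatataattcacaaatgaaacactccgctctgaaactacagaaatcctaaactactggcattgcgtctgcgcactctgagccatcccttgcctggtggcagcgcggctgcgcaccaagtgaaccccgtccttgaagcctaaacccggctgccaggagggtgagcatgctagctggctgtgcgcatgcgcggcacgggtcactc
Prpf39, chr12:65036084-65036383, plus strand: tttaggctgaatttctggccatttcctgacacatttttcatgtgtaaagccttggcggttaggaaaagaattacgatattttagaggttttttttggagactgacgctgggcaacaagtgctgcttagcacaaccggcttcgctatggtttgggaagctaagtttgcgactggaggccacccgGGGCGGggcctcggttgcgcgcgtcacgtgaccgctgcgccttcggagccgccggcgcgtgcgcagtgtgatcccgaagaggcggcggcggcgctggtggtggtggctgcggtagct

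The first Cirbp window held 1 mild cold response element (TCCCCGCC), a sequence described in the mouse Cirbp promoter, together with 3 Sp1 cores (GGGCGG) and 2 CCAAT boxes. The second Cirbp window held 0 cold response elements, 4 Sp1 cores and 0 CCAAT boxes. Of all windows, 5.38% held the cold response letters, 35.7% an Sp1 core and 37.4% a CCAAT box. The Clk4 window held 1 cyclic AMP response element (TGACGTCA), present in 1.79% of windows, and 1 Sp1 core. The Rnpc3 window held 1 ETS core (CCGGAAG), present in 8.86% of windows, and the Prpf39 window 1 Sp1 core. The Tia1 window held none of the motifs searched. The last motif searched was a heat shock element pair (GAANNTTC), found in 7.86% of windows and in none of the 6 matched here. Both strands were searched, and the cold response letters can overlap an Sp1 core of the other strand in part. A match is a description of the letters, not evidence that a factor binds there.

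The libraries held 26.5 to 50.8 mega-reads. Setd7 ranged from 10888 to 14538 normalized counts in the 7 GFP libraries and from 28587 to 158681 in the 6 Setd7 libraries. One Setd7 defeat library, replicate 1, has a longer number in its column name than in its label. The longer number starts with the label's number and goes on with further digits. Whether this library comes from a single animal is not given. Th, which makes dopamine and marks the VTA, was low in 3 libraries, replicates 2 and 3 of the GFP controls with replicate 1 of GFP defeat (2508 to 3392 against 9760 to 19111 elsewhere). Tcf7l2, a thalamic marker, was high in the same GFP controls and in replicate 4 of GFP defeat (6575 to 9559 against 949 to 1869 elsewhere), and all 3 of these libraries are male. In bulk tissue, fewer cells of a type and less RNA per cell cannot be told apart.

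**Figure D1:**
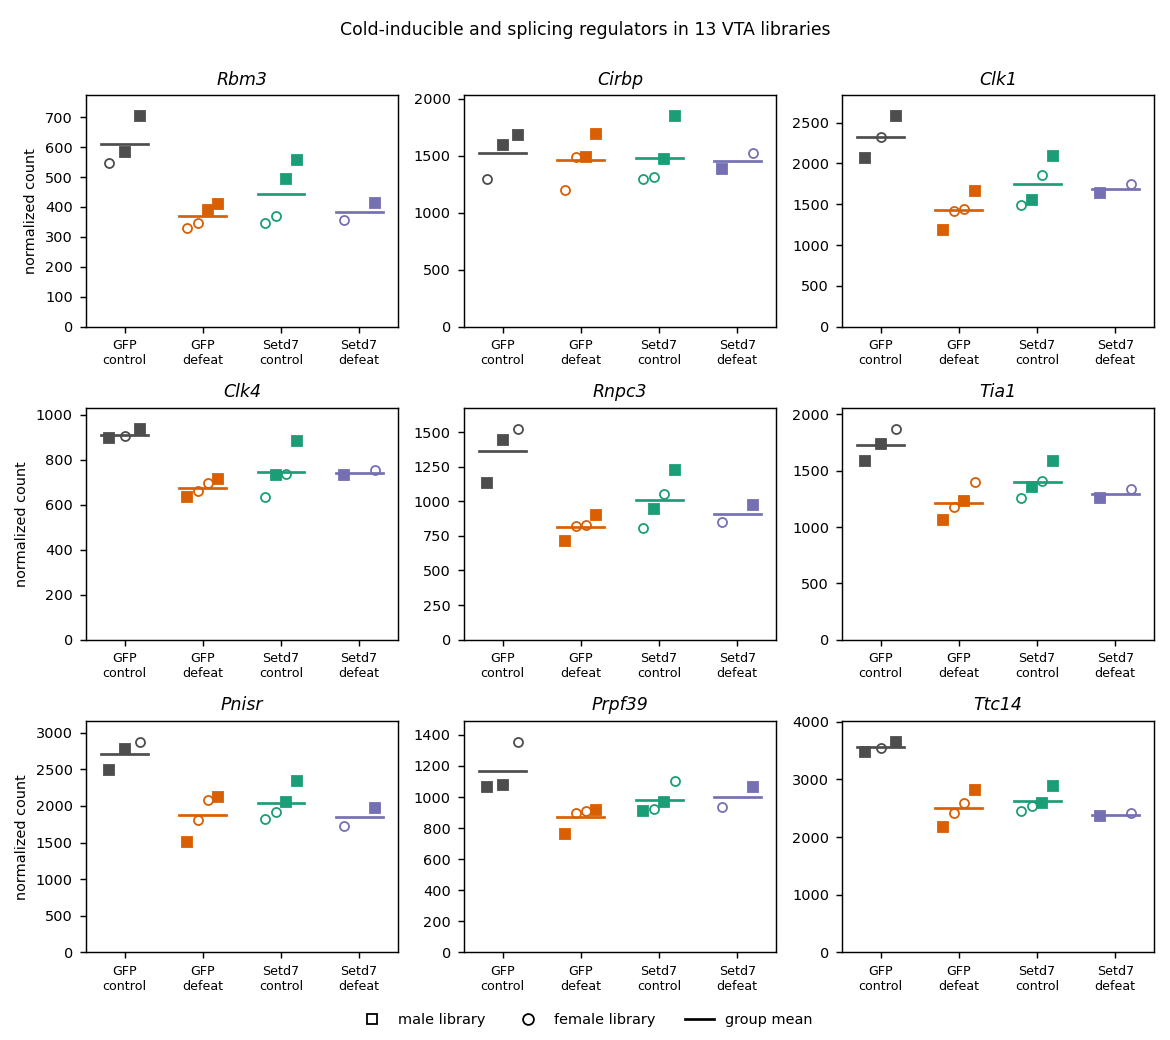
Normalized counts of the 9 genes in each of the 13 libraries by group, with squares for male and open circles for female libraries and a line at each group mean. For every gene but Cirbp, the GFP control libraries all sit above the GFP defeat libraries.

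Among the cold-inducible genes, Rbm3 was lower after defeat with GFP and Cirbp was not. Rbm3 measured 546, 702 and 585 normalized counts in the GFP control libraries (replicates 1 to 3) and 347, 329.6, 409.9 and 390.0 in the GFP defeat libraries (replicates 1 to 4). It measured 346, 371, 558 and 494 in the Setd7 control libraries and 355 and 413 in the Setd7 defeat libraries. The GFP groups did not overlap, while the Setd7 defeat libraries lay within the range of the Setd7 control libraries. Group means were 611 ± 81.3 (SD, n = 3), 369 ± 37.1 (n = 4), 442 ± 101 (n = 4) and 384 ± 40.8 (n = 2), in the order GFP control, GFP defeat, Setd7 control and Setd7 defeat. The log2 difference, defeat minus control, was −0.67 ± 0.11 (SE) with GFP. Differences here and below are of log2(normalized count + 1), adjusted for sex.

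Cirbp measured 1295, 1591 and 1682 normalized counts in the GFP control libraries and 1484, 1198, 1690.2 and 1489 in the GFP defeat libraries. It measured 1294, 1309.6, 1844 and 1466 in the Setd7 control libraries and 1524 and 1381 in the Setd7 defeat libraries. All 4 groups overlapped, and their means, 1523 ± 203 (SD, n = 3), 1465 ± 203 (n = 4), 1478 ± 256 (n = 4) and 1453 ± 101 (n = 2), lay closer together than the libraries within a group. Cirbp thus parted from Rbm3 between groups, with a log2 difference of −0.02 ± 0.11 (SE) after defeat with GFP.

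Both Clk kinases were lower in the GFP defeat libraries. Clk1 measured 2330.3, 2577 and 2066 normalized counts in the GFP control libraries and 1437, 1412, 1667 and 1187 in the GFP defeat libraries. It measured 1497, 1863, 2089.5 and 1549 in the Setd7 control libraries and 1751 and 1633 in the Setd7 defeat libraries. The lowest GFP control library stood above every GFP defeat library, and the Setd7 defeat libraries fell inside the Setd7 control range. The difference was −0.71 ± 0.13 on the log2 scale (a change of −38.8%) after defeat with GFP.

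Clk4 measured 904, 936 and 897 normalized counts in the GFP control libraries. The GFP defeat libraries measured 660.5, 695.5, 715 and 634, the Setd7 control libraries 633, 737, 883 and 731, and the Setd7 defeat libraries 753 and 732. Every GFP control library was above the other 10 libraries. The log2 difference after defeat with GFP was −0.42 ± 0.10 (SE).

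Rnpc3, which binds the small nuclear RNAs of the minor spliceosome, had the largest GFP difference of the 9 genes, −0.73 ± 0.15 (log2, SE). It measured 1522, 1446 and 1129.9 normalized counts in the GFP control libraries and 829.3, 823, 904 and 713 in the GFP defeat libraries. The Setd7 control libraries measured 809, 1055, 1224 and 945, and the Setd7 defeat libraries 850.5 and 973. The GFP groups did not overlap, and Setd7 control replicate 3 was above the lowest GFP control library.

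Tia1, which binds uridine-rich stretches next to 5′ splice sites and also forms stress granules, had GFP control values of 1591 to 1869 normalized counts and GFP defeat values of 1058 to 1399. It measured 1257 to 1590.1 in the Setd7 control libraries and 1335 and 1255 in the Setd7 defeat libraries. Prpf39, a U1-associated factor, was high in a single GFP control library: its GFP control values were 1354, 1065 and 1076 normalized counts and its GFP defeat values 908, 898, 915 and 764. Its Setd7 control libraries measured 926, 1104, 969.8 and 912, and its Setd7 defeat libraries 935 and 1063. Neither gene overlapped between the GFP groups, and the Setd7 control libraries of both ran from GFP defeat levels into or across the gap. The log2 differences after defeat with GFP were −0.52 ± 0.10 for Tia1 and −0.43 ± 0.10 for Prpf39 (SE).

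Pnisr measured 2492 to 2872 normalized counts in the GFP control libraries, 1514 to 2124 in GFP defeat, 1826 to 2341 in the Setd7 controls, and the Setd7 defeat libraries were at 1725 and 1975. Ttc14, a tetratricopeptide repeat protein with an RNA-binding S1 domain, had GFP control values of 3548, 3648 and 3480.2 normalized counts and GFP defeat values of 2600.0, 2427, 2820.2 and 2177. It measured 2541, 2454, 2893 and 2594 in the Setd7 control libraries and 2412 and 2369.7 in the Setd7 defeat libraries. For both genes every GFP control library stood above the other 10. The log2 differences after defeat with GFP were −0.53 ± 0.12 for Pnisr and −0.51 ± 0.09 for Ttc14 (SE).

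Over the set, 8 of 9 genes had every GFP defeat library below every GFP control library, where 4.74% of the 17755 tested genes did. Because this comparison chose the genes, nothing is read from that count. The median log2 difference of the 9 was −0.52, beside −0.00 over all tested genes, and all 9 had values below 0, as did 50.4% of tested genes. By limma with Benjamini-Hochberg adjustment, 0 of the 17755 genes passed an adjusted p of 0.05 in this comparison (0%), and 1642 (9.25%) were under an unadjusted p of 0.05. DESeq2 called 83 (0.467%) and edgeR 0 (0%). The choice had no threshold, so no genes stand just inside or outside it.

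The mean of the Setd7 control group lay between those of the GFP groups for each of the 9 genes, and it is compared with the same 3 GFP control libraries. All 9 genes had their highest group mean in GFP control, and 6 had their lowest in GFP defeat and 3 in Setd7 defeat. Choosing genes lower in GFP defeat than in GFP control favours such an order. Its share over all tested genes was not computed, so nothing is read from it. Setd7 minus GFP, without defeat, gave log2 differences of −0.43 for Rbm3, −0.01 for Cirbp, −0.42 for Clk1, −0.29 for Clk4, −0.44 for Rnpc3, −0.31 for Tia1, −0.41 for Pnisr, −0.27 for Prpf39 and −0.44 for Ttc14. All 9 were below 0, beside 48.6% of tested genes. Only Clk4, Tia1, Pnisr and Ttc14 (4 of 9) had no overlap between these groups, where 4.09% of tested genes were lower without overlap. Tia1 was close to a tie, at 1590.06 normalized counts in Setd7 control replicate 3 and 1590.9 in GFP control replicate 3. After defeat, Setd7 minus GFP was 0.26 for Clk1, 0.20 for Prpf39 and 0.16 for Rnpc3, and the other 6 genes lay from −0.06 to 0.14. Of the 9, 3 were below 0, beside 49.2% of tested genes. Clk4 and Prpf39 (2 of 9) had both Setd7 defeat libraries above all 4 GFP defeat libraries, as did 7.09% of tested genes. These comparisons share libraries with the one that chose the genes and were not tested. Dopamine neuron and thalamus markers also differed in Setd7 without defeat, as given below, and the part of tissue content was not tested.

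**Figure D2:**
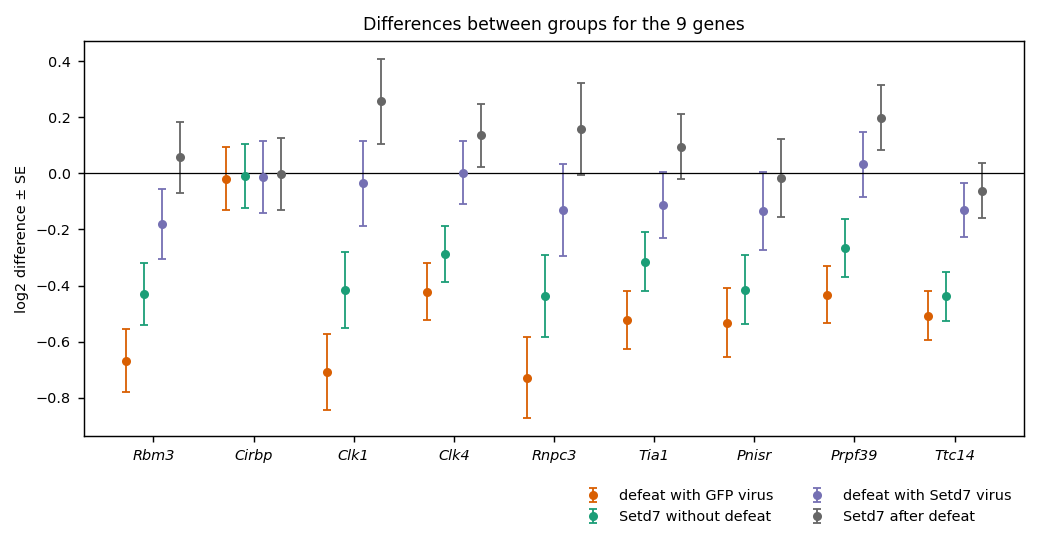
Log2 differences for the 9 genes in 4 comparisons, with bars of ± 1 SE from the fit. Defeat with GFP, which chose the genes, and Setd7 without defeat share the GFP control libraries, and in defeat with Setd7 the values run from −0.18 for Rbm3 to 0.03 for Prpf39.

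Defeat with the Setd7 virus is the comparison whose 6 libraries lie outside the GFP comparison that chose the genes. The choice was still made with earlier results of these data known. No gene of the set passed the test in defeat with Setd7. Rbm3 was 384 ± 40.8 normalized counts (SD, n = 2) after defeat and 442 ± 101 (n = 4) without, a log2 difference of −0.18 with a 95% interval of −0.45 to 0.09. By limma its unadjusted p was 0.176 and its adjusted p 0.9999. The other 8 genes had differences of −0.13 to 0.03, and 0 of 9 were under an unadjusted p of 0.05, where 2.59% of tested genes were (459). Over all genes limma and edgeR called 0 (0%) at an adjusted p of 0.05 and DESeq2 called 7 (0.0394%), none of them in the set.

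The intervals with Setd7 are centred on the difference between these 6 libraries. Their width comes from a spread shared by all 13 libraries, including the GFP libraries that chose the genes. Fitted on the 6 libraries alone, the SE was 0.139 for Rbm3 (0.126 in the main fit) and 0.132 for Clk4 (0.113), and for Pnisr it was 0.086 (0.138). They ran from −0.37 to 0.29 for Clk1, −0.24 to 0.25 for Clk4, −0.49 to 0.22 for Rnpc3, −0.37 to 0.14 for Tia1, −0.43 to 0.16 for Pnisr, −0.22 to 0.28 for Prpf39, −0.34 to 0.08 for Ttc14 and −0.29 to 0.27 for Cirbp. For 8 of the 9 genes, all but Cirbp, the value seen with GFP lay below this interval. The share over all tested genes was not computed, so nothing is read from this count. The GFP values were picked for being low and carry their own error, and the difference between the defeat effects of the viruses was not tested.

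In direction, 7 of the 9 genes had values below 0 in defeat with Setd7, beside 52% of tested genes, and their median was −0.11 beside −0.01 for all tested genes. Ttc14 alone (1 of 9) had both Setd7 defeat libraries below all 4 Setd7 control libraries, at 2391 ± 30.004 (SD, n = 2) against 2620 ± 191 (n = 4), as did 4.96% of tested genes. No gene of the set was higher without overlap, where 4.18% of tested genes were. Markers of meningeal fibroblasts were higher in the Setd7 defeat group for 4 of 4 genes, with a median log2 difference of 1.08, and their summed level was 1032 and 3547 normalized counts in these libraries against 798 to 1437 in the Setd7 controls. Markers of endothelial and mural cells were higher for 5 of 5 genes, with a median of 0.29, and their summed level was 14755 and 17377 against 11668 to 13883, without overlap. Of all tested genes 48% were higher. In each of these lists 3 genes were under an unadjusted p of 0.05 by limma, beside 2.59% of tested genes, and 0 passed limma. Their part in the result was not tested.

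Rbm3 was lower in female than in male libraries in value, and did not pass the adjusted threshold for sex. Rbm3 was 383 ± 81.4 normalized counts in 6 female libraries (329.6 to 546, median 351) and 507 ± 115 in 7 male libraries (390.0 to 702, median 494). Within each of the 4 groups, every male library was above every female library, an order found for 1 of the 9 genes and 0.434% of tested genes. The log2 difference, female minus male, was −0.33 with a 95% interval of −0.51 to −0.16, and by limma the unadjusted p was 0.00138 and the adjusted p 0.999. DESeq2 gave it an adjusted p of 0.191 and edgeR 0.999. Rbm3 lies on chromosome X. Among the Setd7 controls, Setd7 was 158681 and 140236 normalized counts in the female libraries and 81302 and 28587 in the male libraries. Sex and Setd7 level cannot be told apart in that group. In Setd7 defeat the order was the other way, at 92287.5 in the female and 123133 in the male library.

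Cirbp was also lower in female libraries in value, at 1351 ± 126 normalized counts in female (n = 6) and 1592 ± 159 in male libraries (n = 7), a difference of −0.23 with a 95% interval of −0.41 to −0.05. Its unadjusted p by limma was 0.0148 and its adjusted p 0.999. The other 7 genes had sex differences of −0.07 to 0.11 and none was under an unadjusted p of 0.05, so 2 of 9 were, beside 3.87% of tested genes. In direction 7 of 9 were below 0, beside 51.1%. Limma called 11 of the 17755 genes for sex at an adjusted p of 0.05 (0.062%), none in the set. The 3 libraries high in Tcf7l2 are male, and without them the differences were −0.39 for Rbm3 and −0.23 for Cirbp. Cirbp then had an unadjusted p of 0.0607 by limma. Leaving out one group at a time gave −0.37 to −0.23 for Rbm3, with each unadjusted p under 0.05. For Cirbp it gave −0.30 to −0.19, and the unadjusted p by limma was 0.058 without GFP control, 0.0522 without GFP defeat and 0.0959 without Setd7 control.

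Rbm3os, an annotated antisense transcript at the Rbm3 locus, had 6.55 to 28.2 normalized counts in the 13 libraries, at 12.9 ± 5.62 in female and 20.5 ± 6.68 in male libraries (SD, n = 6 and 7). Whether the counting used strand is not given in the sources used here, so reads of Rbm3 and Rbm3os cannot be told apart. The same holds for Prpf39 with Fkbp3 and for Ttc14 with Ccdc39 on opposite strands, and Rnpc3 shares annotated exons with Amy1 on the same strand.

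**Figure D3:**
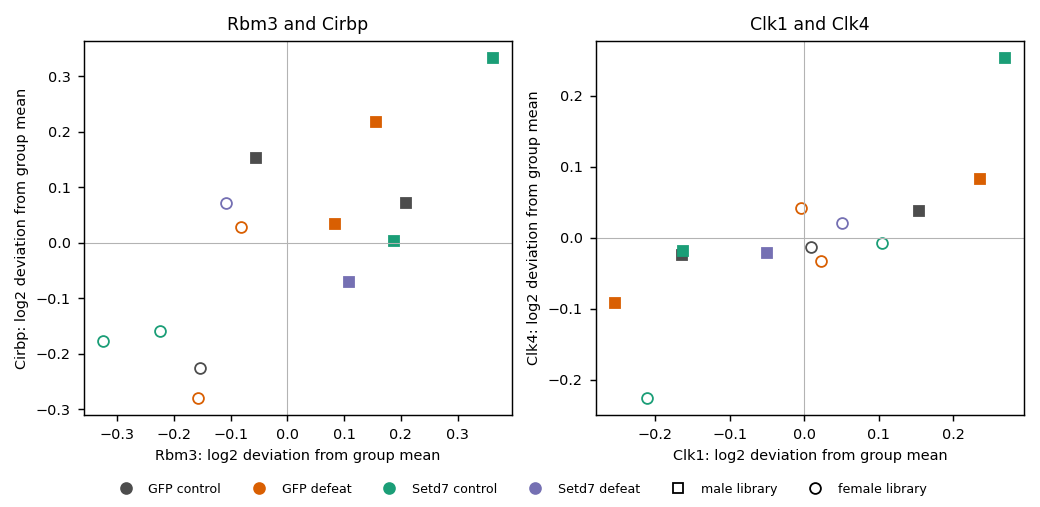
Deviations of each library from its group mean, in log2(normalized count + 1), for Rbm3 with Cirbp and Clk1 with Clk4, with squares for male and open circles for female libraries. In the Rbm3 and Cirbp plot (r of 0.743) all 6 female libraries lie below 0 for Rbm3 and 4 of them also for Cirbp, and in the Clk1 and Clk4 plot r is 0.807.

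Within groups, the genes of each family pair were positively correlated across libraries, and each call rested on single Setd7 control libraries. Deviations of Rbm3 and Cirbp from their group means correlated with Pearson's r of 0.743 and Spearman's rho of 0.731 over 13 libraries. The exact permutation test over 6912 reassignments within groups, two-sided, gave p = 0.0158 for r (0.0158 adjusted over 2 pairs) and 0.00984 for rho (0.00984 adjusted). Clk1 and Clk4 correlated with r of 0.807 and rho of 0.830, with exact permutation p of 0.000434 (0.000868 adjusted) and 0.00463 (0.00926 adjusted). The Rbm3 and Cirbp call was lost without Setd7 control replicate 1 (r = 0.711, exact permutation p = 0.0515), 2 (0.713, 0.0532) or 3 (0.589, 0.0666). The Clk1 and Clk4 call was lost without Setd7 control replicate 3 (r = 0.738, exact permutation p adjusted over the pairs 0.0544).

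Both relations were computed again without the libraries farthest from the median of the first gene. Without Setd7 control replicates 1 and 3, r for Rbm3 and Cirbp was 0.581 over 11 libraries, and without Setd7 control replicate 3 and GFP defeat replicate 4, r for Clk1 and Clk4 was 0.731. When deviations were taken from the mean of each group and sex, a step chosen after seeing the data, r was 0.433 for Rbm3 with Cirbp (exact permutation p = 0.3125) and 0.908 for Clk1 with Clk4 (p = 0.125). That exact permutation test has 32 reassignments and cannot go below p = 0.0625.

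All 36 pairs are summarized in sets of genes that were not planned, and the ranges of r overlap between the sets. The 15 pairs among Clk1, Clk4, Rnpc3, Tia1, Pnisr and Ttc14 had r of 0.557 to 0.847, with a median of 0.715. Rbm3 with Cirbp (0.743), Rbm3 with Clk4 (0.668) and Rnpc3 with Prpf39 (0.617) were above the lowest of these. So were Cirbp with Clk4 (0.580) and Cirbp with Ttc14 (0.564). Pairs of Rbm3 or Cirbp with the other 7 genes ranged from −0.405 to 0.668 (median 0.384), and Prpf39 with the other 8 from −0.405 to 0.617 (median 0.330). The negative values were those of Prpf39 with Rbm3 and with Cirbp. Both genes of a pair are read in each library from the same tissue piece and at the same depth. No p is attached to these correlations.

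**Figure D4:**
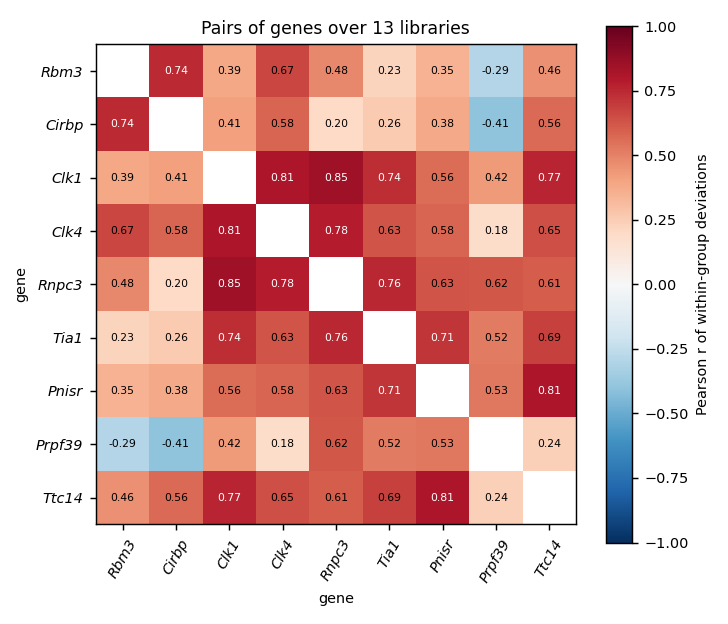
Pearson's r between the 9 genes, over deviations of 13 libraries from their group means. The highest r lies in the block from Clk1 to Pnisr with Ttc14, and Prpf39 has r below 0 with Rbm3 and Cirbp.

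Among tested genes with a mean of at least 30 normalized counts, predicted and RIKEN names left out, the deviations most like those of Rbm3 were found for Snapc4 (r = 0.915), Celsr3 (0.914) and E4f1 (0.907). For Cirbp they were Tmem191c (0.943), Rpl34 (0.910) and Ezh1 (0.905), and for Clk1 they were Med26 (0.932), Rps12 (0.911) and Tmem150a (0.887). Each r is over 13 libraries and was picked as among the highest of all these genes, so its size is not evidence of a link. Rpl34 and Rps12 had low means, 113 and 59.7 normalized counts. The spread within groups, as an SD of log2 values, was widest for Rbm3 at 0.231 and Cirbp at 0.207 and narrowest for Ttc14 at 0.110 and Clk4 at 0.123.

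Other genes of the splicing machinery were examined as lists, and 0 of all tested genes passed limma in either defeat comparison. Of all tested genes, 50.4% were lower after defeat with GFP and 52% with Setd7. DESeq2 called 0.467% of them with GFP and 0.0394% with Setd7, in either direction. Of 8 kinases of SR proteins besides Clk1 and Clk4, 7 were lower after defeat with GFP (median −0.11) and 5 with Setd7 (median −0.01). Values after ± in the lists are SE of the log2 difference. Clk2, a paralog of Clk1, differed by −0.34 ± 0.20 (SE) with Setd7, and Clk3 by 0.15 ± 0.09. Of 13 SR proteins and relatives, 11 were lower with GFP (median −0.05) and 7 with Setd7 (median −0.01), with Tra2b at 0.14 ± 0.07, Srsf7 at −0.10 ± 0.09 and Srsf1 at −0.07 ± 0.07 in defeat with Setd7.

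The minor spliceosome, to which Rnpc3 belongs, was split. Of 12 other proteins 6 were lower and 6 higher after defeat with GFP (median 0.02), and 8 were lower with Setd7 (median −0.04). Its components Pdcd7 (−0.20 ± 0.12), Zcrb1 (−0.20 ± 0.12) and Snrnp48 (−0.24 ± 0.18) had the smallest unadjusted p with Setd7. Of 10 proteins of U1 and the 5′ splice site, 7 were lower with GFP (median −0.17) and 7 with Setd7 (median −0.05). Tial1, the paralog of Tia1, was called lower with GFP by DESeq2 (log2 −0.29, adjusted p = 0.0348) and had an adjusted p of 0.354 by limma. Luc7l, a U1 component, differed by −0.14 ± 0.07 with Setd7.

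Nuclear speckle proteins, the class of Pnisr, were lower in 15 of 16 cases with GFP (median −0.18) and 10 of 16 with Setd7 (median −0.04). Pnn, a splicing-linked speckle protein, differed by −0.22 ± 0.14 with Setd7. Of 11 noncoding RNAs that stay in the nucleus, all 11 were lower with GFP (median −0.56), beside 50.4% of tested genes. With Setd7, 10 of these RNAs were lower (median −0.16), beside 52%. DESeq2 called 3 of them lower with GFP, namely Mirg (log2 −0.88, adjusted p = 0.0195), Snhg11 (−1.01, 0.0387) and the miR-124 host gene Mir124a-1hg (−1.13, 9.789e-06), and by limma their adjusted p were 0.339 to 0.354. Over all tested genes DESeq2 called 0.467% in that comparison. In defeat with Setd7, Snhg14 differed by −0.26 ± 0.20, Mirg by −0.27 ± 0.23 and Pantr1 by −0.20 ± 0.21.

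Of 20 heat shock and folding genes, whose products are known to rise with warming, 17 had values above 0 after defeat with GFP (median 0.09), beside 49.6% of tested genes, and 13 with Setd7 (median 0.05), beside 48%. None passed limma in either comparison. DESeq2 called Dnajb1 (log2 0.32, adjusted p = 0.0468) and Hsp90ab1 (0.23, 0.0195) higher with GFP, and limma gave them 0.354 and 0.365. With Setd7, the chaperones Hspa1a, Hspb1 and Hspa8 differed by 0.46 ± 0.25, 0.35 ± 0.23 and 0.17 ± 0.12. Of 16 genes of the circadian clock, 11 were lower with GFP (median −0.11) and 9 with Setd7 (median −0.02), with Ciart at −0.20 ± 0.19 and Nr1d2 at 0.08 ± 0.08 in the latter. In defeat with Setd7, none of these 8 lists had a gene under an unadjusted p of 0.05. The GFP values of these lists come from the libraries that chose the set and support nothing about it.

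The annotated transcripts of the genes, which the choice did not use, are given as a description and were not tested. In the GRCm38 annotation, 8 of 9 genes had a transcript with a retained intron, all but Pnisr, beside 54.1% of 15451 tested protein-coding genes. A transcript marked for nonsense-mediated decay was annotated for 8 of 9, all but Rnpc3, beside 26.2%, and both kinds for 7 of 9, beside 20.1%. Tia1 had 14 retained-intron transcripts of 28, and Clk1 and Clk4 had 7 each, of 13 and 14. The values used here are sums over a gene and do not separate these transcripts.

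The tissue content of the libraries moved with defeat with GFP and with Setd7 without defeat. The summed level of 10 dopamine neuron markers was 26260 to 70525 normalized counts in GFP control, 26840 to 112833 in GFP defeat, 64470 to 125512 in Setd7 control and 72010 to 88592 in Setd7 defeat. That of 10 thalamus markers was 25363 to 59802, 22257 to 39473, 20684 to 28464 and 21459 to 27537 in the same order. All 10 dopamine markers were higher after defeat with GFP (median 0.85) and 8 of 10 thalamus markers lower (median −0.36), and 0 of these passed limma. Oligodendrocyte markers were higher for 7 of 7 genes (median 0.22) and meningeal fibroblast markers lower for 4 of 4 (median −0.35), and 0 passed limma. Markers of astrocytes, microglia, endothelial and mural cells and choroid plexus went in both directions. Of all tested genes 49.6% were higher and 50.4% lower. In Setd7 without defeat, all 10 dopamine markers were higher (median 0.99) and all 10 thalamus markers lower (median −0.68). Of these, 0 passed limma there, and 48.6% of all tested genes were lower. No dopamine neuron or thalamus marker was at 0 in all libraries.

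The values of the GFP comparison were also computed without the libraries that stood apart, as a description. Without the 3 libraries low in Th the median over the 9 genes was −0.72 (−0.52 with all libraries), and without the 3 high in Tcf7l2, a step chosen after seeing the data, it was −0.58. Either step leaves GFP control replicate 1 as the only GFP control library. With the mean dopamine marker level as a covariate the median was −0.45. The part of tissue content in the difference was not tested. The mean log2 level of the 9 genes was 10.53 to 10.64 over the GFP controls and 9.94 to 10.23 over the GFP defeat libraries, including GFP control replicate 1 at 10.62. That library had 9760 normalized counts of Th and 1869 of Tcf7l2, each at the edge of the range of the libraries that did not stand apart.

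**Figure D5:**
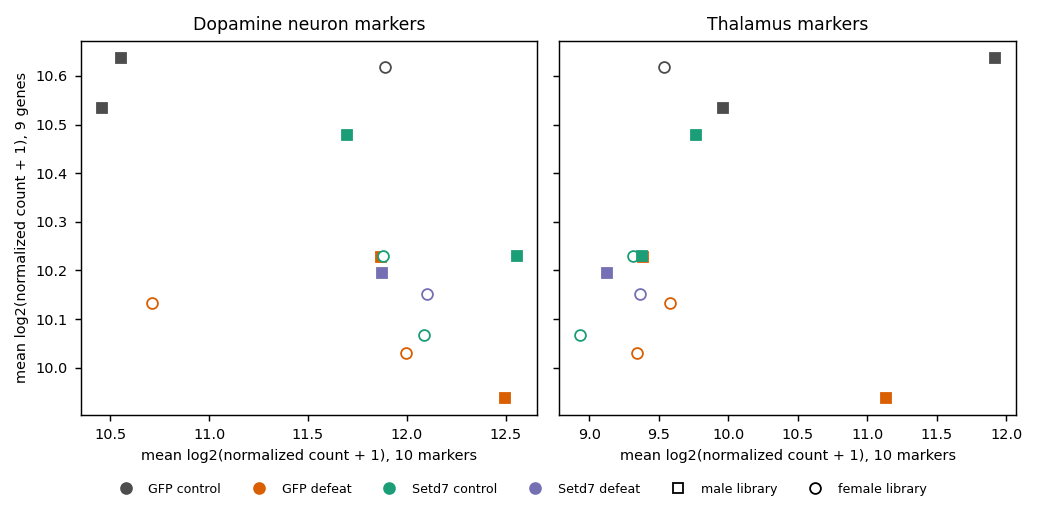
Mean log2(normalized count + 1) of the 9 genes against that of 10 dopamine neuron markers and 10 thalamus markers, 1 point per library, with squares for male and open circles for female libraries. The 3 GFP control libraries are the highest in the 9 genes, at 10.53 to 10.64, and 2 of them are the lowest in dopamine markers.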

How the data were processed

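Per the labels, total RNA from VTA was purified with RNeasy Micro kits and made into TruSeq RiboZero libraries. Bowtie2, featureCounts, DESeq2 and the GRCm39 build are named per the submitters' processing notes, with no version. A single table of signal was deposited, holding counts divided by size factors for 26264 genes in 13 libraries, and all its sample columns were used. Within each library the values are multiples of 1 step, and all 341432 (100%) lay within 0.01 of a whole read, which gave reads for the count tests.

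Genes were tested when at least 2 libraries reached 10 normalized counts (17755 genes). Log2(normalized count + 1) was fitted in R 4.3.3 by limma 3.58.1, trend on, with 4 group means and sex, two-sided, Benjamini-Hochberg adjusted over all tested genes, threshold 0.05, checked on simulated data. Prior degrees of freedom were 4.64. Alternatives were edgeR 4.0.16 and DESeq2 1.42.0 on recovered reads, other pseudocounts, filters, scalings, covariates and left-out libraries. Groups came from the labels' virus and stress fields.

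The 9 genes and the lists were chosen with earlier results of these data known. Genes named are the 9, Setd7, Th, Tcf7l2, list members that passed or had up to the 3 smallest unadjusted p in defeat with Setd7, and the 3 genes most like Rbm3, Cirbp and Clk1. Rbm3os and list genes called by DESeq2 alone were named after their values were seen. Reads were not realigned.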

Additional observations from a re-analysis of the deposited data

Results flagged for a closer look

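In the GFP defeat group, Prpf39 in replicate 4 (764 normalized counts) stood below the other 3 libraries (898 to 915), with a gap of 0.889 of the group's range, above Dixon's 95% critical value for 4 samples. It was the only one flagged of 18 gene and group sets of 4 libraries tested, and chance flags about 1 in 20. Replicate 4 is a male library and is also 1 of the 3 high in Tcf7l2. The Prpf39 difference after defeat with GFP was −0.43 with all libraries and −0.58 without the 3 high in Tcf7l2. That step also leaves out GFP control replicates 2 and 3. It keeps only GFP control replicate 1, the highest of the GFP controls in Prpf39 (1354 normalized counts). Over single left-out libraries the difference ran from −0.49 to −0.33. Whether the tissue content of replicate 4 bears on this value was not tested.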

How the results depend on the processing

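No paired analysis was possible because replicate numbers were given in accession order and pair no libraries. Left-out libraries high in Tcf7l2, left-out groups for sex, and deviations from group and sex means were chosen after seeing the data. Where a group keeps 1 library, limma assumes that it varies like the other groups. Of 741 values under settings other than single left-out libraries, 709 kept their direction and side of the threshold, or moved by less than the spread between replicates. Part of this is fixed by the settings. Other filters, robust fitting, no sex term or left-out GFP libraries do not change the difference in defeat with Setd7 (−0.18 for Rbm3 in each).

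Counts of called genes moved most. DESeq2 called 7 genes for defeat with Setd7, 83 for defeat with GFP, 27 for Setd7 without defeat, 6 for Setd7 after defeat and 17 for sex. With no filter on low values the count was 1 for defeat with Setd7 and 1 for Setd7 after defeat, and with only the groups compared it was 2 for the latter. Without the GFP defeat group, 7 genes were called for sex. Leaving out single libraries gave 0 to 18 genes for defeat with Setd7 (18 without Setd7 defeat replicate 2), 0 to 4 for Setd7 without defeat (4 without GFP control replicate 1) and 0 to 23 for Setd7 after defeat (23 without Setd7 defeat replicate 2).

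In defeat with Setd7 the smallest differences changed sign: Cirbp was 0.00367 with edgeR and Clk4 −0.00394 with DESeq2, and over single left-out libraries Cirbp ran from −0.24 to 0.21, Clk1 from −0.11 to 0.063, Clk4 from −0.069 to 0.084 and Prpf39 from −0.14 to 0.21. For sex, without the Setd7 control group the values were 0.036 for Clk1, 0.0078 for Clk4, 0.052 for Rnpc3, 0.047 for Pnisr and 0.013 for Ttc14. Tia1 was −0.033 without the libraries low in Th and −0.029 without those high in Tcf7l2, where Prpf39 was −0.000763. Over single left-out libraries sex values ran from −0.070 to 0.053 for Clk1, −0.11 to 0.033 for Rnpc3, −0.12 to 0.00364 for Pnisr and −0.083 to 0.00449 for Ttc14. The median of the 9 genes after defeat with GFP was −0.72 without the libraries low in Th.

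The within-group correlation of Rbm3 with Cirbp ran from 0.589 to 0.814 over left-out libraries and lost its call without Setd7 control replicate 1 (0.711), 2 (0.713) or 3 (0.589). Clk1 with Clk4 ran from 0.738 to 0.835 and lost its call without Setd7 control replicate 3 (0.738). With deviations from group and sex means the values were 0.433 and 0.908, neither called, in an exact permutation test that cannot go below p = 0.0625. The causes were not tested. Rbm3, at 317 to 984 reads a library, had the fewest reads of the set.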
